A study of Mus musculus with 123 samples.

Results

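Male mice of the inbred strain C57BL/6J were kept awake by gentle handling for the first 3 h of the light phase, and RNA of their cerebral cortex was compared with that of undisturbed mice killed at the same time of day. The deprived group, T27 on the study's clock, held 3 animals (T27S2, T27S3 and T27S5). The undisturbed group, ZT3 (3 h after light onset, zeitgeber time), held 3 animals as well (T3N2, T3N3 and T3N4). Libraries were assigned to the groups by their labels alone. These 6 RNA libraries are 6 of the 62 in the deposited table and 6 of 123 samples in the series. Mice were 11 to 12 weeks old at deprivation, lived on a 12 h light and 12 h dark cycle, carried no engineered allele per the labels, and gave 1 cortex each for both RNA-seq and ATAC-seq, which marks open chromatin. All 6 libraries belong to batch 1. Other groups used below were T30 (3 mice kept awake for 6 h), ZT6 (5 undisturbed mice) and ZT0 (8 undisturbed mice at light onset, 4 of them in batch 1).

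Wakefulness raises neuronal firing, calcium entry and the mitogen-activated protein kinase (MAPK) cascade, and these switch on immediate early genes within minutes. The first products are transcription factors of the Fos, Egr and Nr4a families and synaptic proteins such as Arc, followed by phosphatases and adaptor proteins that damp the same cascade. Wakefulness is also known to engage the unfolded protein response of the endoplasmic reticulum (ER), in which the sensors ATF6, IRE1 and PERK raise chaperones and folding enzymes, and sleep loss by handling can raise corticosterone. Light onset opens the rest phase of mice, so undisturbed animals at ZT3 have slept for part of the preceding hours, while those at ZT0 have come from the active night.

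RNA levels below are log2 units as deposited, and changes are T27 minus ZT3 with their standard error (SE) from a limma model of all 62 libraries, with Benjamini-Hochberg adjustment over 13842 genes and calls at adjusted p below 0.05. Values of single libraries are given in the order T27S2, T27S3, T27S5 and T3N2, T3N3, T3N4. Of all genes tested, 8.21% were called higher at T27, 7.37% lower and 15.6% either way. These shares are the background for every count of list members. The lists were chosen with earlier results of these data known, so a count above this background is a description and no independent test. Most called changes were small, with a median size of 0.30 and a 90th percentile of 0.58, and the rises reached further than the falls: 39 genes rose by more than 1 log2 unit and 4 fell by as much, and 219 rose and 105 fell by more than 0.5. Groups did not overlap in 2056 of the 2156 called genes and in 4385 of all genes. The median change over all genes was -0.01. Replicate libraries correlated at 0.994 to 0.995 (Pearson, across genes) and no gene had identical values in any pair of them. ZT3 library T3N2 carried markers of choroid plexus, so each result is also given without it where that changes the call. Of 212 called members of the gene lists, 128 kept their call with each of the 6 libraries left out in turn and 84 lost it with at least 1 of them. The 84 include members not named below. List members named below, and genes named by rule, kept the call unless a loss is stated.

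**Figure D1:**
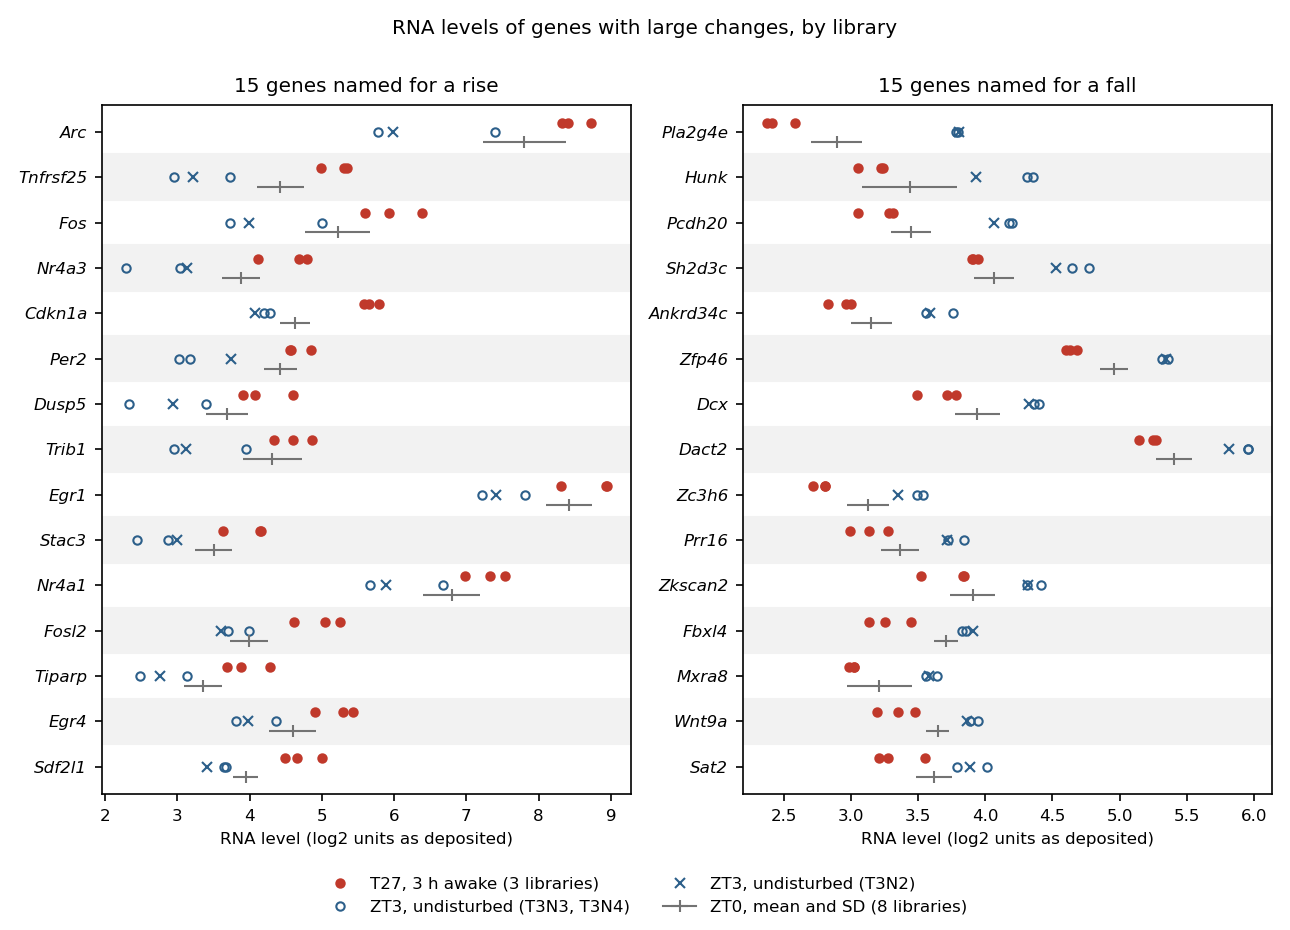
RNA level (log2 units as deposited, x axis) of the 15 genes named for a rise and the 15 named for a fall, in the 3 libraries of T27 (filled red), the 3 of ZT3 (open blue, cross for T3N2) and as mean and standard deviation of the 8 ZT0 libraries (grey). The 3 T27 libraries of every gene lie beyond the 3 ZT3 libraries, and one ZT3 library, T3N3, lies above the other 2 for Arc (7.39), Fos (5.00) and Nr4a1 (6.68).

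Transcription factor genes of the first wave rose. All 3 measured Nr4a receptor genes, 5 of 6 Egr and Nab genes and 5 of 11 AP-1 genes were higher at T27, while 1 AP-1 gene was lower (3 were higher and 1 lower without T27S3). Fosb, a Fos family member of AP-1, stood at 4.12, 4.53 and 4.60 at T27, against 2.35, 2.55 and 2.42 at ZT3. Its libraries were tight in both groups, and the rise was 3.93-fold (log2 change 1.97, SE 0.22, adjusted p = 5.51e-08). Fosl2, another subunit, read 4.61, 5.04 and 5.25 at T27, against 3.61, 3.99 and 3.70 at ZT3 (log2 change 1.20, SE 0.19, adjusted p = 1.37e-05). Fos read 5.60, 6.39 and 5.93 at T27, against 3.99, 5.00 and 3.73 at ZT3. The ZT3 library T3N3 lay above its fellows for Fos, the SE of the change was 0.58, and its call (adjusted p = 0.0325) was lost without T27S3, T27S5, T3N2 or T3N4 (adjusted p = 0.113, 0.0724, 0.107 and 0.145). Jun, the partner of the Fos proteins, went the other way, at 4.35, 4.25 and 4.08 at T27, against 4.75, 4.65 and 4.62 at ZT3 (log2 change -0.45, SE 0.11, adjusted p = 0.00334).

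Egr2, a zinc finger factor that follows neuronal activity, stood at 3.71, 4.52 and 4.41 at T27, against 1.32, 2.24 and 1.10 at ZT3. This 6.32-fold rise was the largest of any list member (log2 change 2.66, SE 0.54, adjusted p = 0.000462). The mean levels of Egr2 and Fosb over all libraries lay below the 25th percentile of genes (3.09), so neither is among the genes named by rule. Egr1 at 1.25, Egr4 at 1.16 and Egr3 at 0.93 rose less, as did Nab2 (0.79), whose product represses Egr proteins. Nr4a3, an orphan nuclear receptor gene, read 4.11, 4.69 and 4.79 at T27, against 3.13, 3.03 and 2.29 at ZT3, and rose by 1.71 (SE 0.29, adjusted p = 3.13e-05). The rise of Nr4a1 (1.20, adjusted p = 0.0244) was not called without T27S3, T27S5, T3N2 or T3N4 (adjusted p = 0.0895, 0.0667, 0.0897 and 0.134). Nr4a2 (0.82, adjusted p = 0.0361) was called with all libraries and lost with any ZT3 library left out, T3N2 among them (adjusted p = 0.0514), and without T27S3 or T27S5 (adjusted p = 0.111 and 0.099). Without T3N2 the Nr4a list had 1 call of 3, as it had without T27S3, T27S5 or T3N4, the Egr and Nab list kept its 5, and the AP-1 list had 4 rises and 1 fall.

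In a list of 26 other inducible transcription factors 14 rose and 1 fell, with 11 and 1 without T3N2 and 7 and 1 without T3N4. Klf2 and Klf4, zinc finger factors named for Krueppel, rose by 1.29 and 1.26 (SE 0.17 and 0.18). Klf2 read 3.81, 3.91 and 3.40 at T27, against 2.23, 2.55 and 2.46 at ZT3, with a gap of most of a unit between the groups. Ier5 rose by 0.98 and Bhlhe40, a repressor of the circadian clock, by 0.90. Klf10 rose by 0.96 and was lost without T3N4 (adjusted p = 0.0827). Among 16 genes of the CREB and CREM pathway, which couples cyclic AMP and calcium to transcription, 3 rose and 1 fell with and without T3N2. Sik1, a kinase that restrains CREB, rose 3.15-fold, at 3.50, 3.85 and 3.67 at T27, against 2.02, 2.42 and 1.61 at ZT3. Crem (0.64) and Sik2 (0.61) rose too, and the phosphodiesterase gene Pde4b fell (-0.23). Of 12 serum response and actin genes Srf itself rose (0.42, SE 0.08), and Cyr61 rose by 1.19 but not without T27S2, T27S3, T3N2 or T3N4 (adjusted p = 0.0662, 0.109, 0.123 and 0.0544).

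The list with the most called members was that of synaptic effectors of activity. It is a mixed list of activity-induced genes, and Gadd45b, Gadd45g, Per1 and Pim1 are members beside genes of synaptic proteins. Of 34 measured members 25 rose, none fell and all 34 had a positive change, with a median of 0.58 against -0.01 over all genes. Leaving out single libraries left 21 to 24 rises, with 23 without T3N2. Arc, which drives removal of glutamate receptors from synapses, had 8.33, 8.73 and 8.41 at T27, against 5.99, 7.39 and 5.78 at ZT3. Its 4.29-fold rise (SE 0.71 log2 units, adjusted p = 0.0361) was lost without T27S2, T27S3, T27S5, T3N2 or T3N4 (adjusted p = 0.0683, 0.0946, 0.0758, 0.124 and 0.152) and held without T3N3 (adjusted p = 0.0219).

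Other effectors changed less than Arc but with closer replicates. Bdnf, a neurotrophin gene, stood at 4.95, 5.10 and 5.06 at T27, against 4.06, 4.14 and 3.83 at ZT3, a 2.04-fold rise (SE 0.12 log2 units, adjusted p = 1.08e-07). Homer1, a postsynaptic scaffold gene, read 8.02, 8.22 and 8.22 at T27, against 6.93, 7.26 and 7.22 at ZT3, and rose by 1.02 (SE 0.16). Rasd1, a small GTPase gene, rose by 1.34, Ptgs2, the inducible cyclooxygenase gene, by 1.21, and Tiparp, a mono-ADP-ribosyltransferase gene, by 1.16. Nptx2, a pentraxin that clusters glutamate receptors, rose by 0.74, and the synaptic organizers Cbln4 by 0.70 and Cbln2 by 0.44. Pcsk1, which cleaves peptide precursors, rose by 0.88, beside precursors of the same vesicles, Vgf (0.59) and Scg2 (0.41). The inhibin subunit gene Inhba, which encodes activin, rose by 0.73. Gem, another small GTPase gene, rose by 0.87.

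**Figure D2:**
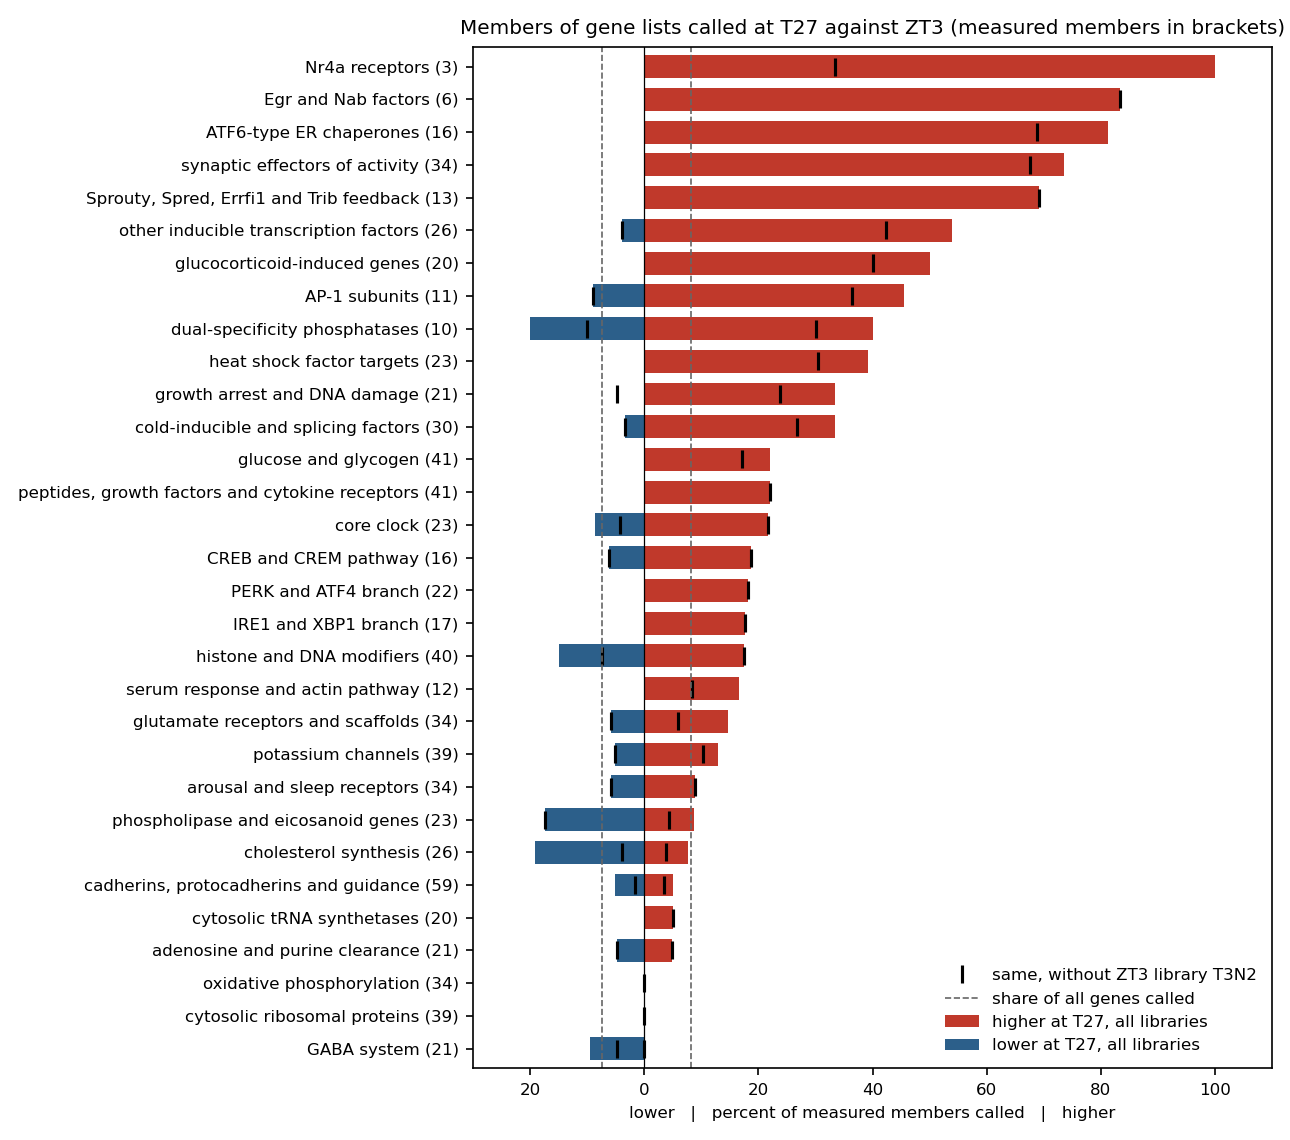
Percent of the measured members of each gene list (number measured in brackets) called higher (red, to the right) or lower (blue, to the left) at T27 against ZT3, with black ticks for the same fit without ZT3 library T3N2 and dashed lines at the shares of all genes, 8.21% higher and 7.37% lower. Lists of synaptic effectors, Egr factors, ER chaperones and feedback adaptors reach far past the line, and ribosomal protein and oxidative phosphorylation lists hold no call.

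Rises outnumbered falls in the lists of MAPK cascade inhibitors, and activity of the cascade was not measured. Of 13 Sprouty, Spred, Errfi1 and Trib genes, adaptors and pseudokinases that dampen receptor signalling, 9 rose, with 9 without T3N2 and a median of 0.46. Trib1 read 4.34, 4.87 and 4.60 at T27, against 3.12, 3.95 and 2.96 at ZT3, where T3N3 was again high (log2 change 1.26, SE 0.33, adjusted p = 0.00543). Trib2 rose by 0.95, Spry4 by 0.84 and Spred2 by 0.77, and Spred2 was tight in both groups, at 6.26, 6.40 and 6.44 at T27, against 5.71, 5.58 and 5.52 at ZT3. Dual-specificity phosphatases, which strip both phosphates from MAP kinases, divided: 4 of 10 rose and 2 fell (3 and 1 without T3N2). Dusp4 rose 2.78-fold and Dusp5 2.46-fold, with Dusp4 at 3.86, 4.15 and 4.14 at T27, against 2.69, 2.78 and 2.25 at ZT3. Dusp16, which acts on stress kinases, fell by 0.39 log2 units (SE 0.10, adjusted p = 0.00385). The rise of Dusp6 (0.84) was lost without T27S3, T3N2 or T3N4 (adjusted p = 0.0744, 0.0546 and 0.128), and the fall of Dusp8 (-0.17) without each library but T27S5 (highest adjusted p = 0.206, without T27S2).

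Calls were unequal between the lists of ER response genes. Activity of the sensors ATF6, IRE1 and PERK was not measured. Of 16 chaperone and folding genes of the ATF6 type 13 rose, all 16 had a positive change and the median was 0.41, and leaving out single libraries left 11 to 13 rises (11 without T3N2). Hspa5, the gene of BiP, which binds unfolded chains in the ER, stood at 7.94, 7.85 and 8.02 at T27, against 6.97, 7.11 and 7.32 at ZT3 (log2 change 0.81, SE 0.13, adjusted p = 3.12e-05). Sdf2l1, a partner of that chaperone, read 4.66, 4.49 and 5.00 at T27, against 3.41, 3.65 and 3.67 at ZT3, a 2.20-fold rise (SE 0.16 log2 units). Creld2 rose by 0.76, the disulfide isomerase genes Pdia4 and Pdia6 by 0.69 and 0.59, and the secreted factor gene Manf by 0.66. Of these chaperones Pdia3 (0.32) was lost without T3N2 (adjusted p = 0.0637), and Syvn1 (0.22) without T27S2, T27S5, T3N2 or T3N3 (adjusted p = 0.052, 0.166, 0.091 and 0.0985). In the IRE1 and XBP1 branch 3 of 17 rose and in the PERK and ATF4 branch 4 of 22, with medians of 0.10 and 0.06. Only 1 gene of the first branch was called without T3N3 or without T3N4, and 2 of the second without T27S3, T27S5 or T3N3. Xbp1, the factor that IRE1 activates by splicing, was the tightest of them, at 6.61, 6.67 and 6.70 at T27, against 6.00, 6.03 and 6.10 at ZT3 (log2 change 0.62, SE 0.08, adjusted p = 2.29e-07). Atf4 rose by 0.28 (SE 0.05), and of 20 cytosolic tRNA synthetase genes, textbook targets of ATF4, Eprs alone rose (0.17).

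Promoters of the ER genes carried the element that ATF6 binds in a large share. The ER stress response element was searched as CCAAT and CCACG with 9 bases between them, on both strands, in RefSeq promoters (250 bases before to 50 after each start, GRCm38.p6). It lay in 16 of 10251 promoters matched to tested genes (0.156%), in 7 of 853 of genes called higher (0.821%) and in 0 of 763 of genes called lower. Of the 14 ATF6-type chaperone genes with a promoter 8 held it, and 7 of those 8 rose, Canx (0.10, adjusted p = 0.273) being the exception. Sdf2l1, Pdia4 and Manf of the same list rose too and were not among the 8. The list was made of ATF6-type genes, so its share of holders is a description and no test of the element. The 7 are shown because they are all of the raised genes that hold the element, Hsp90b1 at 2 sites, each with 10 bases on either side and the element in capitals, written in the direction of the gene.
Hspa5, chr2:34772015-34772053, plus strand: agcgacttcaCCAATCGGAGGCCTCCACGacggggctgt
Creld2, chr15:88819510-88819548, plus strand: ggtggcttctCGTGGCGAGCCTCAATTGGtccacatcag
Pdia6, chr12:17266481-17266519, plus strand: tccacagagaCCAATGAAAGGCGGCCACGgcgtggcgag
Dnajc3, chr14:118937817-118937855, plus strand: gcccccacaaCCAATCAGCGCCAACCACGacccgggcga
Hsp90b1 nearer site, chr10:86705523-86705561, minus strand: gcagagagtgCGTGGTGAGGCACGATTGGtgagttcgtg
Hsp90b1 farther site, chr10:86705628-86705666, minus strand: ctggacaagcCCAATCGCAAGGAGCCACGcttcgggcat
Calr, chr8:84847065-84847103, minus strand: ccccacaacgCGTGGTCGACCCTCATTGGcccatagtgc
Syvn1, chr19:6046522-6046560, plus strand: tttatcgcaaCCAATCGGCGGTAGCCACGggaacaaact
In Creld2, Calr and the nearer site of Hsp90b1 the element runs on the opposite strand, so it reads CGTGG before ATTGG. The first base of the element lay 65 bases before the start in Hspa5, 98 in Pdia6, 105 in Dnajc3 and 126 in Creld2. A match describes these letters and is no measurement of binding. The remaining 9 holders (Canx, Xlr3b, Zfp57, Adcy3, Hnrnpa3, Spats2l, Alg12, Pan2 and Acacb) were not called; they are named because all holders are.

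Heat shock factor targets, the cytosolic chaperone list, all had positive changes (23 of 23, median 0.15), and 9 were called higher (7 without T3N2). Hspb1, a small heat shock protein gene, stood at 4.32, 3.80 and 4.10 at T27, against 3.04, 3.12 and 3.43 at ZT3 (log2 change 0.87, SE 0.18). Dnajb1, a cochaperone gene, rose by only 0.39 but with an SE of 0.06 (adjusted p = 5.41e-06). Hsph1 and Chordc1 rose by 0.42 and 0.44. The call of Dnaja1 was lost without T27S3, T3N2 or T3N4 (adjusted p = 0.0943, 0.0704 and 0.0998) and that of Stip1 without each library but T27S5 (highest adjusted p = 0.114, without T27S3).

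Cdkn1a, the cell cycle inhibitor p21 and a target of both p53 and the glucocorticoid receptor, stood at 5.58, 5.79 and 5.65 at T27, against 4.08, 4.29 and 4.20 at ZT3 (log2 change 1.49, SE 0.18, adjusted p = 1.84e-07). It belongs to 2 lists, growth arrest and DNA damage, with 7 of 21 higher (5 higher and 1 lower without T3N2), and glucocorticoid-induced genes, with 10 of 20 higher (8 without T3N2 and 6 without T3N4). Gadd45a and Gadd45b, stress sensors, rose by 1.09 and 0.81, while Gadd45g (0.56) was lost without T27S3 or T3N2 (adjusted p = 0.0585 and 0.0754). Mdm2, the p53 target that degrades p53, rose by 0.19 but not without T27S2, T27S3, T3N2 or T3N4 (adjusted p = 0.115, 0.0521, 0.0843 and 0.0537). Tsc22d3, a classic glucocorticoid target, read 6.46, 6.65 and 6.35 at T27, against 5.92, 5.94 and 5.88 at ZT3 (log2 change 0.57, SE 0.08, adjusted p = 1.26e-06). Map3k6 rose by 0.56, and all 20 genes of the glucocorticoid list had a positive change (median 0.28). Klf9, Nfkbia, Zbtb16 and Pdk4, induced by the same hormone, were called (0.19, 0.30, 0.40 and 0.35) but each lost the call: Klf9 without any library but T27S2 (highest adjusted p = 0.323, without T27S3), Nfkbia without T27S2 or T3N4 (adjusted p = 0.115 and 0.132), Zbtb16 without T27S3 or T3N4 (adjusted p = 0.0659 and 0.0674) and Pdk4 without T27S2, T27S5, T3N2 or T3N3 (adjusted p = 0.0907, 0.0714, 0.0571 and 0.105).

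Of 23 clock genes 5 rose and 2 fell. Per2, a repressor of the clock, stood at 4.56, 4.57 and 4.84 at T27, against 3.74, 3.18 and 3.02 at ZT3. Here T3N2 was the ZT3 library nearest to T27, and without it the change was larger (1.56 against 1.35). Cry1, the partner of the period proteins, rose by 0.47 and Nfil3 by 0.59, and Per1 by 0.89, lost without T3N4 (adjusted p = 0.0923). The falls of Dbp (-0.40) and Rorb (-0.33) each lost their call without 5 of the 6 libraries. Dbp stayed called without T3N3 (adjusted p = 0.0462) and Rorb without T3N2 (adjusted p = 0.0392).

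Genes that handle RNA and chromatin moved as well. Of 30 cold-inducible and splicing factor genes 10 rose and 1 fell (8 and 1 without T3N2). Tra2a, a regulator of exon inclusion, read 6.88, 6.75 and 6.84 at T27, against 6.29, 6.25 and 6.23 at ZT3, among the most tightly replicated rises (log2 change 0.57, SE 0.07, adjusted p = 2.25e-07). Serine and arginine rich factors rose with it, Srsf7 by 0.37, Srsf3 by 0.30, Srsf6 by 0.27 and Srsf10 by 0.26, and the paraspeckle protein gene Sfpq by 0.31. Cirbp, the cold-inducible RNA-binding protein gene, fell to 6.07, 6.48 and 6.29 at T27, against 6.86, 6.83 and 6.76 at ZT3. In a list of 40 histone and DNA modifiers 7 rose and 6 fell, with 7 and 3 without T3N2, 5 and 3 without T27S5 and 5 and 2 without T3N4. Kdm6b, a demethylase of histone H3 lysine 27, rose 1.98-fold, at 4.05, 4.37 and 4.38 at T27, against 3.33, 3.42 and 3.09 at ZT3. Its X-linked relative Kdm6a fell by 0.25 but not without T27S3 or T3N4 (adjusted p = 0.0713 and 0.104). Tet3, an enzyme that oxidizes methylated cytosine, rose by 0.66 (SE 0.12) and Kdm7a by 0.33. Setd1a, a methyltransferase for histone H3 lysine 4, fell by 0.20 (SE 0.05).

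Genes that fell did so mostly by small steps, with a median of -0.29 for those called lower beside 0.30 for those called higher. Pla2g4e, a cytosolic phospholipase gene, stood at 2.37, 2.58 and 2.41 at T27, against 3.80, 3.79 and 3.78 at ZT3, the largest fall of a gene named by the rule on level and overlap (log2 change -1.34, SE 0.19, adjusted p = 1.53e-06). Pcdh20, a protocadherin gene, read 3.05, 3.31 and 3.28 at T27, against 4.07, 4.20 and 4.18 at ZT3. Hunk, a protein kinase gene, was at 3.22, 3.24 and 3.05 at T27, against 3.93, 4.36 and 4.31 at ZT3. For each of these 3 genes the distance between the groups exceeded the spread within either. Zfp46, a zinc finger gene, had the smallest adjusted p of the 15 genes named for a large fall, with 4.63, 4.60 and 4.68 at T27, against 5.35, 5.32 and 5.36 at ZT3 (log2 change -0.70, SE 0.08, adjusted p = 1.08e-07). Dact2, a regulator of Wnt signalling, fell by 0.69 and the ligand gene Wnt9a by 0.56. Fbxl4, a mitochondrial F-box protein gene, fell by 0.59, and Sat2, related to polyamine acetyltransferases, by 0.55. Smaller falls with tight replicates were those of Slitrk1 (-0.34) and Omg (-0.36), membrane proteins of neurons and myelin, of the sodium and proton exchanger gene Slc9a8 (-0.41), of the helicase gene Rtel1 (-0.51) and of the integrin gene Itgb8 (-0.43).

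Of 341 measured Zfp genes, a family looked up because Zfp46 and its relatives were among the falls, 19 rose and 28 fell (8.21%, against 7.37% of all genes), and without T3N2 14 rose and 23 fell. Of 253 solute carrier genes 21 rose and 30 fell (11.9%), and without T3N2 14 rose and 13 fell. Among 59 cadherin, protocadherin and guidance genes 3 rose and 3 fell (2 and 1 without T3N2, 1 and 1 without T27S2), Pcdh20 among them. Both family counts, Zfp and solute carriers, were chosen after their values were seen.

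Lists of membrane signalling held called shares near the 15.6% of all genes, at 14.7% for arousal receptors, 17.9% for potassium channels, 20.6% for glutamate receptors and 9.52% for the GABA system. In 34 receptors of arousal transmitters and sleep substances 3 rose and 2 fell, with the same counts without T3N2 and 4 and 1 without T27S2. Htr1b, a presynaptic serotonin receptor gene, read 2.77, 2.98 and 2.91 at T27, against 2.27, 2.30 and 2.09 at ZT3 (log2 change 0.67, SE 0.13, adjusted p = 0.000194), while its relative Htr1a read 2.60, 2.50 and 2.47 at T27, against 3.04, 2.88 and 2.92 at ZT3 (log2 change -0.43, SE 0.10, adjusted p = 0.0022). Hrh1, the histamine receptor gene of wake promotion, rose to 4.38, 4.27 and 4.33 at T27, against 3.89, 3.78 and 3.78 at ZT3. Hcrtr2, an orexin receptor gene, was called (0.51) with overlapping groups, and lost without T27S3, T3N3 or T3N4 (adjusted p = 0.238, 0.0937 and 0.143), and Chrna7 fell (-0.34) except without T27S2 (adjusted p = 0.113).

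Of 39 potassium channel genes 5 rose and 2 fell (4 and 2 without T3N2, 3 and 2 without T27S5 or T3N3). Kcnf1, a silent subunit that modifies other channels, rose by 0.47 (SE 0.07, adjusted p = 4.13e-06), and Kcns2, of the same kind, fell by 0.46 (SE 0.10). Kcnj3, a subunit of the channel opened by inhibitory receptors, fell by 0.37. Glutamate receptors and scaffolds had 5 rises and 2 falls of 34 with all libraries, and at most 3 rises with any library left out (2 and 2 without T3N2). Shank2, a scaffold gene, rose by 0.33 and kept the call with each library left out. Cacng2 and Dlg4 were lost with each library left out (highest adjusted p = 0.164 and 0.126, both without T3N2), and Grm8 without T27S2, T27S3, T3N2 or T3N4 (adjusted p = 0.0597, 0.0782, 0.054 and 0.0857). Grm2, a presynaptic glutamate receptor gene, fell by 0.37. In the GABA list no member of 21 rose and 2 fell, and the list had 0 to 4 falls depending on the library left out (1 without T3N2, 4 without T27S3).

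Ligands and lipid mediators moved in part. Of 41 peptides, growth factors and cytokine receptors 9 rose, with 9 without T3N2. Tnfrsf25, a death-domain receptor of the tumour necrosis factor family, led with 5.35, 4.98 and 5.31 at T27, against 3.22, 3.73 and 2.95 at ZT3, a 3.76-fold rise. Tnfrsf12a rose by 0.72, Crh, the corticotropin-releasing hormone gene, by 0.58, and Il17ra by 0.48. Phospholipase and eicosanoid genes held 2 rises and 4 falls of 23 (1 and 4 without T3N2 or T3N4, 1 and 5 without T27S3): beside Ptgs2 and Pla2g4e, Ptger3, a prostaglandin receptor gene, fell by 0.42, and the endocannabinoid enzyme genes Daglb and Faah fell by 0.26 and 0.16, the last not without T27S2 (adjusted p = 0.0544). Of 26 cholesterol genes 2 rose and 5 fell with all libraries, 1 and 1 without T3N2, 1 and 2 without T27S2 or T27S5 and 0 and 5 without T27S3 or T3N4. The fall that remained was that of Srebf1, a regulator of lipid synthesis (-0.41, SE 0.08, adjusted p = 0.0014 without T3N2). Insig1 (-0.32), a brake on sterol synthesis, and Stard4 (-0.23), a sterol carrier gene, lost the call without T27S2, T27S5, T3N2 or T3N3 (highest adjusted p = 0.139 and 0.184, both without T27S5).

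Glucose and glycogen genes had 9 rises and no fall of 41 (7 without T3N2), with a list median of -0.01. Pfkfb3, whose product makes the strongest activator of glycolysis, stood at 5.03, 5.21 and 5.22 at T27, against 4.22, 4.32 and 4.36 at ZT3 (log2 change 0.86, SE 0.10, adjusted p = 1.13e-07). Ppp1r3c and Ppp1r3g, which bring a phosphatase to glycogen, rose by 0.69 and 0.44, Pdp1, which activates pyruvate dehydrogenase, by 0.65, and Slc2a1, the glucose transporter gene of the blood-brain barrier, by 0.43. Dio2, an astrocyte enzyme that makes active thyroid hormone, was outside these lists and had the smallest p of the genes named for p: it read 5.98, 5.76 and 5.96 at T27, against 4.81, 4.91 and 5.14 at ZT3 (log2 change 0.95, SE 0.10, adjusted p = 2.38e-08). Of 39 cytosolic ribosomal protein genes and of 34 oxidative phosphorylation genes 0 were called in limma in either direction, with medians of 0.02 and 0.01 and with 1 and 2 genes at an unadjusted p below 0.05. A single oxidative phosphorylation gene was called without T27S2. Adenosine and purine genes held 1 rise, Ak4 (0.39), and 1 fall of 21, with 0 falls without T27S3, T27S5 or T3N4.

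Setting T27 and ZT3 beside ZT0 showed on which side of light onset each lay. The contrasts of T27 and of ZT3 against ZT0 share libraries with each other and with the main comparison, so the values stand side by side and no overlap was tested. Against ZT0, 3.61% of genes were called at T27 and 4.83% at ZT3. Batch was a term of the fit, and the genes in the rest of this paragraph were also called against the 4 ZT0 libraries labelled batch 1. Of these 4, T0N5 is merged with its repeat library of batch 2, so that fit was not wholly of batch 1. Some genes were above light onset at T27: Cdkn1a by 1.04, Fosb by 1.37, Rasd1 by 1.05, Fosl2 by 0.99, Gem by 0.98, Hspb1 by 0.95, Dio2 by 0.79, Sdf2l1 by 0.78 and Bdnf by 0.67. Among these, Cdkn1a, Fosb, Rasd1, Fosl2, Gem, Hspb1, Dio2 and Sdf2l1 were not called at ZT3 against ZT0, with ZT3 values between -0.61 and 0.11. Other genes were called at ZT3 against ZT0 and not at T27. Per2 lay 0.23 above ZT0 at T27 without a call, against 1.11 below it at ZT3. Such genes included Gadd45a (0.14 at T27 and -0.95 at ZT3), Egr1 (0.32 and -0.94), Dnajb5 (0.36 and -0.76), Ier5 (0.26 and -0.72) and Tra2a (0.12 and -0.44). Egr2 (1.05 at T27 and -1.61 at ZT3), Tnfrsf25 (0.79 and -1.12) and Nr4a3 (0.65 and -1.06) lay well to both sides of ZT0 without a call at T27 (adjusted p = 0.214, 0.0709 and 0.127). Falls were called above ZT0 at ZT3 and not called at T27 for Pla2g4e (-0.44 at T27 and 0.90 at ZT3), Hunk (-0.26 and 0.77), Pcdh20 (-0.22 and 0.71), Sh2d3c (-0.14 and 0.59), Dact2 (-0.19 and 0.50) and Cirbp (-0.14 and 0.39). Zfp46 lay on both sides, 0.32 below ZT0 at T27 and 0.38 above it at ZT3, and Fbxl4 (-0.43) and Slitrk1 (-0.25) were below ZT0 at T27.

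**Figure D3:**
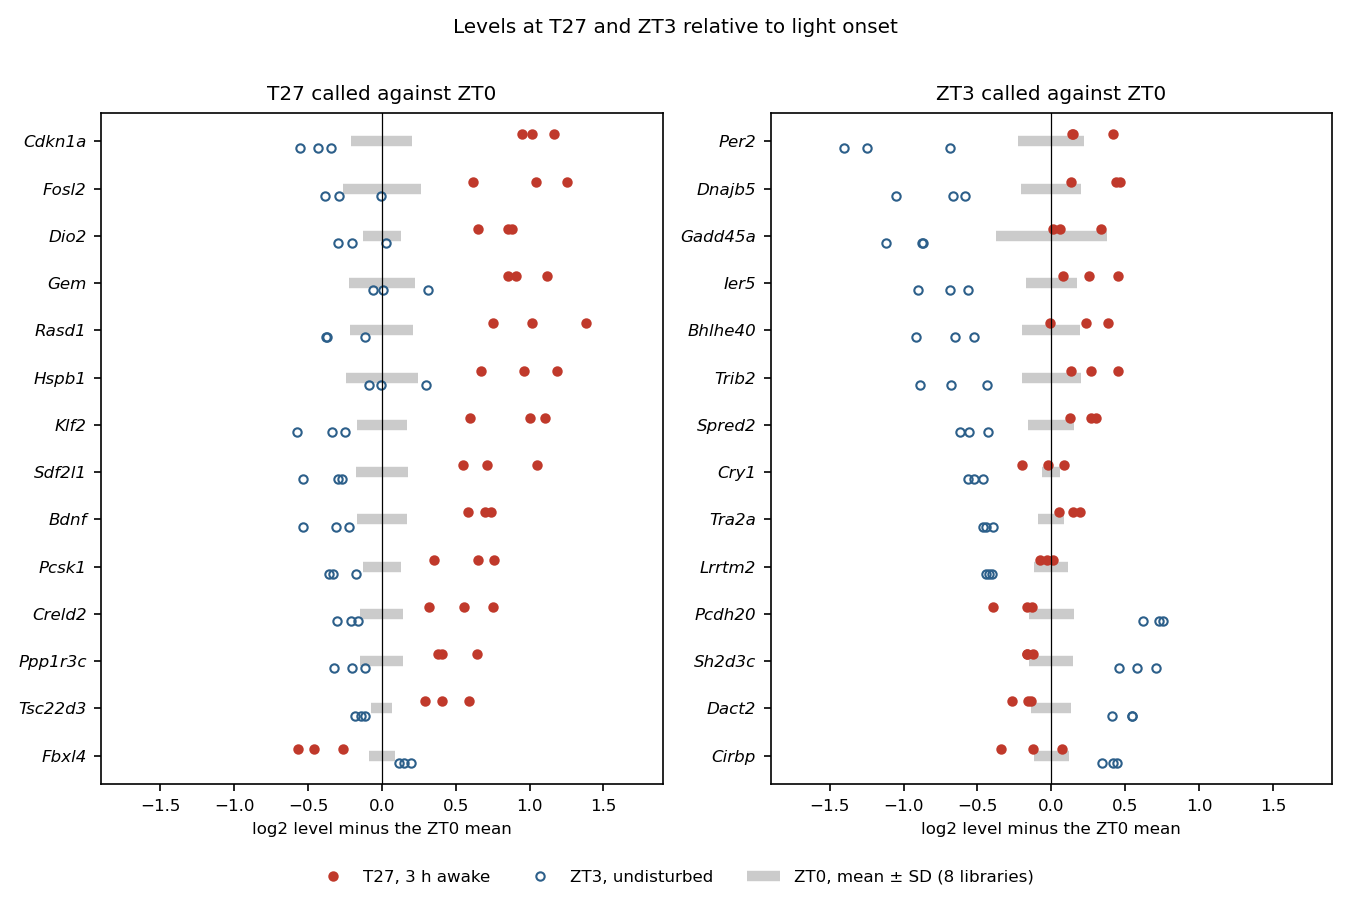
Log2 level minus the ZT0 mean (x axis) of 14 genes called at T27 against ZT0 (left) and 14 called at ZT3 against ZT0 (right), in the 3 T27 libraries (filled red) and the 3 ZT3 libraries (open blue), with the mean and standard deviation of the 8 ZT0 libraries as a grey bar. On the left T27 stands off the bar (Cdkn1a 1.04 above), and on the right ZT3 does (Per2 1.11 below, Pcdh20 0.71 above). The genes were picked for these patterns.

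The undisturbed library T3N2 differed from its fellows in tissue markers. Ttr, the transthyretin gene of choroid plexus, read 1.70, 1.51 and 2.29 at T27, against 7.54, 4.66 and 2.95 at ZT3. Summed on the linear scale, the 3 measured choroid plexus markers (Ttr, Kl and Enpp2) gave 137 to 150 at T27, against 378, 187 and 164 at ZT3 and 146 to 199 in the other 56 libraries. All 3 were called lower, and without T3N2 only Enpp2 (-0.18, adjusted p = 0.0277). Kl also lost its call without each T27 library (adjusted p = 0.175, 0.0674 and 0.0719). Meningeal markers summed to 94.8, 118 and 106 at T27, against 172, 123 and 138 at ZT3, with 3 of 11 called lower (Aldh1a2, Slc13a4 and Slc6a13) and no call in limma without T3N2 or without T27S2. Aldh1a2 also lost its call without T27S5 or T3N4 (adjusted p = 0.0632 and 0.0884), as did Slc6a13 (adjusted p = 0.113 and 0.0558). All 11 meningeal markers had a negative change, with a median of -0.35 with T3N2 and -0.29 without it, and 9 had an unadjusted p below 0.05. In a bulk sample, fewer cells of a type and less RNA per cell cannot be told apart.

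Without T3N2, 11.2% of all genes were called, 5.92% higher and 5.24% lower. Of the genes called higher with all libraries 791 stayed so and 345 (30.4%) did not, of those lower 691 stayed and 329 (32.3%) did not, and 0 changed sign between calls. Leaving out T3N4, whose choroid plexus sum was the lowest of the ZT3 group, gave 770 higher and 690 lower genes, against 819 and 726 without T3N2. The part of marker tissue in single genes was not tested.

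**Figure D4:**
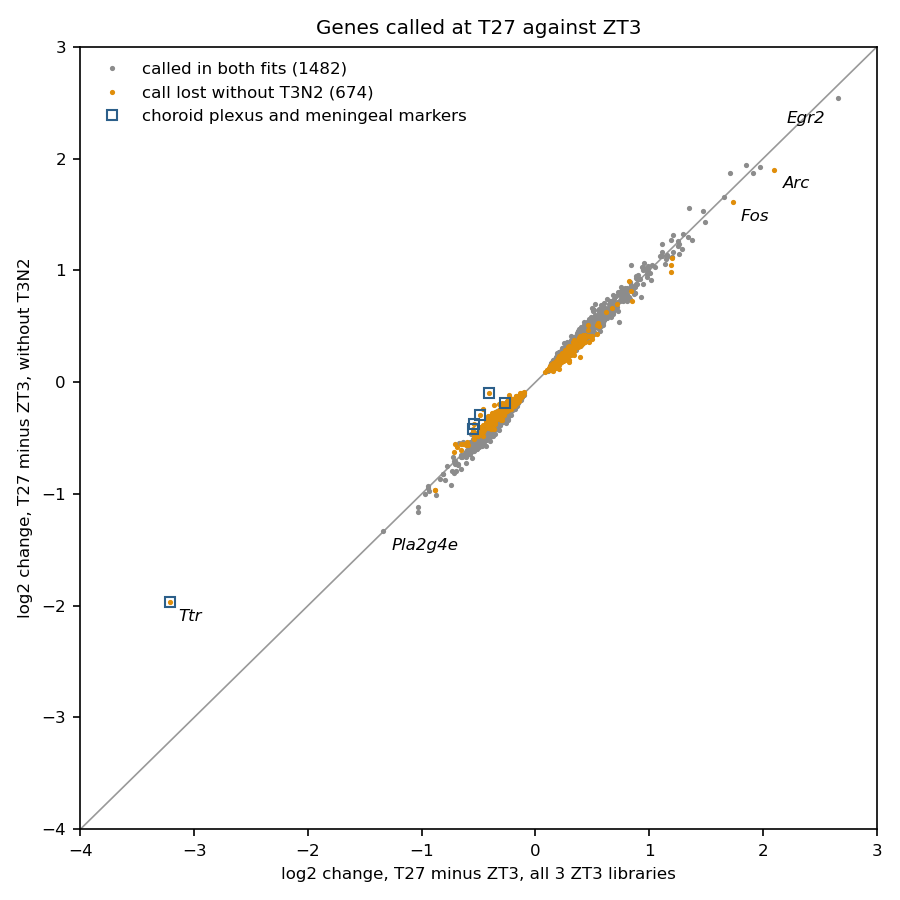
Log2 change, T27 minus ZT3, of the 2156 called genes with all 3 ZT3 libraries (x axis) and without T3N2 (y axis), with genes that lost the call in orange (674), those called in both fits in grey (1482), and called choroid plexus and meningeal markers boxed. Ttr leaves the diagonal at -3.22 on the x axis and -1.97 on the y axis, and most other genes lie on it.

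Markers of the cortex itself were present in all 6 libraries, with summed levels close in both groups. Summed markers of excitatory neurons gave 2870 to 3040 at T27, against 2860 to 3010 at ZT3, and those of oligodendrocytes 2130 to 2280 at T27, against 2020 to 2350 at ZT3. Single markers did change: in 13 excitatory markers 2 rose and 3 fell (38.5%), with 0 falls without T27S2 or T3N3. Neurod6 rose by 0.44, and Fezf2 (0.32) was lost without T27S3, T27S5 or T3N4 (adjusted p = 0.0701, 0.0972 and 0.175). In 12 endothelial markers (33.3% called) 1 rose, the glucose transporter Slc2a1, and 3 fell (1 fell without T27S5 or T3N4), led by the organic anion carrier gene Slco1a4 (-0.39, adjusted p = 0.00258). Of 12 oligodendrocyte markers 0 were called in limma (1 at an unadjusted p below 0.05). Of 13 astrocyte markers 1 was called, the connexin gene Gjb6 (0.32), and it was lost without T27S2, T27S3, T3N2 or T3N3 (adjusted p = 0.16, 0.0568, 0.104 and 0.105). In 9 immature neuron markers (22.2% called, median -0.02) 1 rose and 1 fell, with 0 rises without T27S2, T3N3 or T3N4. The fall was that of Dcx, a microtubule gene of young neurons (-0.70). In 10 oligodendrocyte precursor markers (10% called, median -0.06) only Gpr17, of differentiating precursors, was called (0.44), and 4 of the 10 had a positive change.

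Elements of factors downstream of calcium and of serum response were looked for in the same promoters, since members moved together. The cyclic AMP response element, TGACGTCA, which CREB binds, lay in 3.57% of the 10251 promoters, in 48 of 853 of genes called higher (5.63%) and in 17 of 763 of genes called lower (2.23%). The AP-1 element TGANTCA was held by 6.11% of all promoters, 6.1% of those called higher and 5.5% of those called lower, and the Egr element GCGTGGGCG by 1.37%, 2.11% and 1.18% in the same order. The CArG box, bound by serum response factor, was in 1.59% of all, 2.11% of those called higher and 1.05% of those called lower, and the E-box CACGTG of clock and related factors in 11.5%, 12.8% and 10.7%. The heat shock element, searched as GAA, TTC and GAA with 2 bases between neighbours, was in 0.585% of all, 1.06% of those called higher and 0.393% of those called lower. It lay in 5 of 19 promoters of the heat shock list, those of Hsph1 and Chordc1, which rose, and of Dnajb6, Hspd1 and Hspe1, which were not called. Among the 165 promoters of genes called higher by more than 0.5, 4.85% held the cyclic AMP element, 7.27% the AP-1 element and 1.21% the Egr element. The CArG box was in 3.03% of these 165, the E-box in 11.5% and the heat shock element in 0. All motifs were searched on both strands. Neither TGACGTCA nor TGANTCA contains the other, and sites of different motifs may overlap in part. A few sites are shown as examples of the raised genes, chosen after their values were seen and not a full set, with 10 bases on either side, the motif in capitals and the direction of the gene.
Dio2, cyclic AMP element, chr12:90739116-90739143, minus strand: tctttctcaaTGACGTCAagatctttag
Pcsk1, cyclic AMP element, chr13:75089769-75089796, plus strand: caggtagatcTGACGTCAagagatggct
Scg2, cyclic AMP element, chr1:79440077-79440104, minus strand: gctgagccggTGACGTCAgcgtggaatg
Tra2a, cyclic AMP element, chr6:49264062-49264089, minus strand: gtccgcccctTGACGTCAggcgccgggg
Egr2, CArG box, chr10:67537787-67537816, plus strand: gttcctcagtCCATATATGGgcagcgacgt
Dusp5, CArG box, chr19:53529063-53529092, plus strand: ccatatttggCCTTATATGGgcactcacgt
Srf, CArG box, chr17:46556225-46556254, minus strand: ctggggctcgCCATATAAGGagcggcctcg
Rnd3, CArG box, chr2:51149192-51149221, minus strand: ctcccaggctCCATAAAAGGggaggaggcg
Per1, E-box, chr11:69098773-69098798, plus strand: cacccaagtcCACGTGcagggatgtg
Cry1, E-box, chr10:85185099-85185124, minus strand: tgccggtggtCACGTGgggtgcatgc
Egr2, Dusp5 and Srf hold a second CArG box each, and Rnd3, a small GTPase gene, rose by 0.79. Genes that fell hold such elements too: Dusp8 has 2 cyclic AMP elements, Wnt9a, Insig1, Chrna7 and Kdm6a have an E-box, and Fbxl4, Rtel1 and Rorb have an AP-1 element.

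Strong rises were of short genes. The median genomic span was 25.2 kb over the 98.4% of tested genes with a RefSeq span, 22.6 kb for genes called higher and 28.4 kb for genes called lower. Among genes that rose by more than 0.5 it was 15 kb, among those that fell by as much 22 kb, and among those that rose by more than 1 it was 7.96 kb. In that last set 34.2% of genes were under 5 kb long, against 11.7% of all. Median RNA levels were 4.58 for genes called higher and 3.98 for genes called lower, against 4.46 for all, on the deposited scale, which may or may not be scaled for transcript length.

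Chromatin accessibility was measured in cortex of the same animals as reads in 130727 peaks, given here as the deposited normalised signal and tested with limma on log2(signal + 0.5). More peaks opened than closed: 860 were higher at T27 (0.658%) and 41 lower (0.0314%). These counts moved with single libraries: 86 peaks were higher without T27S5, 104 without T27S3 and 258 without T3N4, and 532 to 641 without each of the other 3. Reads in peaks, in mega (M), ran from 4.28 to 5.61 M at T27, against 3.33 to 4.21 M at ZT3, and the part of this difference in the calls was not tested. Peaks called higher had a median signal of 9.48 at T27, against 4.23 at ZT3. A start of a tested gene on the same chromosome was at hand for 825 of the 860, out of 10251 genes with a start, and 785 of these (95.2%, against 82% of all such peaks) lay more than 10 kb from every such start, with a median distance of 113584 bp against 66972.5 bp over all peaks, and 46.7% lay inside a gene body, against 56.7% of all peaks.

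The peak with the smallest p of all, on chromosome 18, had a signal of 13.1, 15.6 and 14.7 at T27, against 4.31, 3.00 and 0.49 at ZT3 (log2 change 2.55, SE 0.30, limma adjusted p = 2.16e-08). It had no overlap between the groups, as had the next, chr1:166038528-166039442 (mm10), which had a signal of 21.0, 19.8 and 25.2 at T27, against 4.31, 7.49 and 8.80 at ZT3. The peak on chromosome 1 averaged 22 ± 2.86 at T27 and 6.87 ± 2.31 at ZT3 (SD, n = 3 each; log2 change 1.66, SE 0.22, limma adjusted p = 1.17e-06), and its nearest start, of the transcription factor gene Pou2f1, was 35893 bp away. A peak inside the gene body of Epc2, a chromatin protein gene, at chr2:49520562-49521691, had the smallest p of the peaks called lower, with 9.88, 7.09 and 8.42 at T27, against 14.7, 18.3 and 17.8 at ZT3 (log2 change -0.97, SE 0.20, adjusted p = 0.00452).

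Called peaks were rare near gene starts of any kind. Within 10 kb of a start of any tested gene 40 of 22607 peaks were higher (0.177%), of a gene called higher 8 of 2668 (0.3%) and of a gene called lower 4 of 1847 (0.217%). Near 10 of the 15 genes named for a large rise and 14 of the 15 named for a large fall, those with a start to measure from, 0 of 37 and 0 of 41 peaks were called by limma (Arc, Per2, Trib1, Egr1, Stac3 and Prr16 were not examined), with 3 of all 78 at an unadjusted p below 0.05 and 0 called (3 at an unadjusted p below 0.05) by edgeR on recovered reads. Inside gene bodies 0.619% of peaks were higher for genes called higher, 0.394% for genes called lower and 0.521% for genes not called. Over peaks at starts, the median log2 change was -0.15 against -0.01 over all peaks.

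A few genes named above did have a called peak. Hrh1, the histamine receptor gene, had one over its start at chr6:114458114-114458863, with a signal of 9.17, 7.09 and 8.42 at T27, against 5.07, 5.09 and 2.69 at ZT3 (log2 change 0.91, SE 0.24, adjusted p = 0.0401). Its 3 T27 libraries lay above the 3 of ZT3 in both RNA and chromatin. Groups did not overlap in 850 of the 860 peaks called higher and in 24185 of all 130727 peaks, so the separation in chromatin largely follows from the call. An AP-1 element lies inside the Hrh1 peak, shown with the motif in capitals because the peak over it was called.
Hrh1, AP-1 element, chr6:114458296-114458322, plus strand: gacccagacaTGACTCAgccctctcca
Htr1b had a peak 7361 bp from its start, at chr9:81625789-81626471, with 16.2, 20.4 and 16.6 at T27, against 7.61, 5.39 and 10.3 at ZT3 (log2 change 1.18, SE 0.29, adjusted p = 0.0225). Pfkfb3 had one inside its gene body at chr2:11529914-11530763, with 18.9, 26.1 and 25.0 at T27, against 15.7, 11.4 and 11.5 at ZT3 (log2 change 0.84, SE 0.19, adjusted p = 0.0112). The start of Emp1, a membrane protein gene with higher RNA (0.50), opened at chr6:135362364-135363287 (log2 change 0.96), while the start peak of Gar1, which encodes a small nucleolar RNA-binding protein, closed at chr3:129830774-129831882 (-0.60) as its RNA rose by 0.24. Emp1 and Gar1 were outside the lists, their RNA calls were not examined with single libraries left out, and all 5 genes were picked for their called peaks. Without T3N2 the peaks of Hrh1 and Pfkfb3 stayed called (limma adjusted p = 0.0436 and 0.00853). None of the 5 peak calls was examined with a T27 library left out, and over all peaks only 86 were higher without T27S5.

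Deprivation of 6 h, T30 against ZT6, shared no library with the 3 h comparison and called 31.6% of genes, 16.0% higher and 15.6% lower. Of the 50 genes named by rule at 3 h, 49 were called at 6 h, all but Prr16, and all 50 had the same sign. Cdkn1a changed by 1.49 (SE 0.18) at 3 h and Pla2g4e by -1.34 (SE 0.19), beside 1.28 (SE 0.17) and -1.45 (SE 0.17) at 6 h. For none of the 50 did the 6 h change differ from the 3 h change after adjustment (lowest adjusted p = 0.399, limma), and 4 had an unadjusted p below 0.05. Among lists with unlike counts were cholesterol synthesis, with 2 rises and 5 falls at 3 h beside 1 and 17 at 6 h, clock genes, with 5 and 2 beside 9 and 8, glucocorticoid-induced genes, with 10 and 0 beside 15 and 0, heat shock factor targets, with 9 and 0 beside 13 and 0, peptides and growth factors, with 9 and 0 beside 17 and 4, glutamate receptors, with 5 and 2 beside 12 and 4, arousal receptors, with 3 and 2 beside 9 and 5, and cadherins, with 3 and 3 beside 9 and 9. ER chaperones had 13 rises at 3 h beside 14 at 6 h, synaptic effectors 25 beside 27, and Sprouty, Spred and Trib genes 9 beside 10. These counts stand beside a share of all genes called of 15.6% at 3 h and 31.6% at 6 h. The 6 h comparison had 5 undisturbed mice in place of 3. The median size of its called changes was 0.26 over 4372 genes, against 0.30 over 2156 genes at 3 h. Large changes were more numerous at 6 h: 62 genes rose and 8 fell by more than 1 log2 unit, beside 39 and 4 at 3 h. The differences between these counts were not tested.

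**Figure D5:**
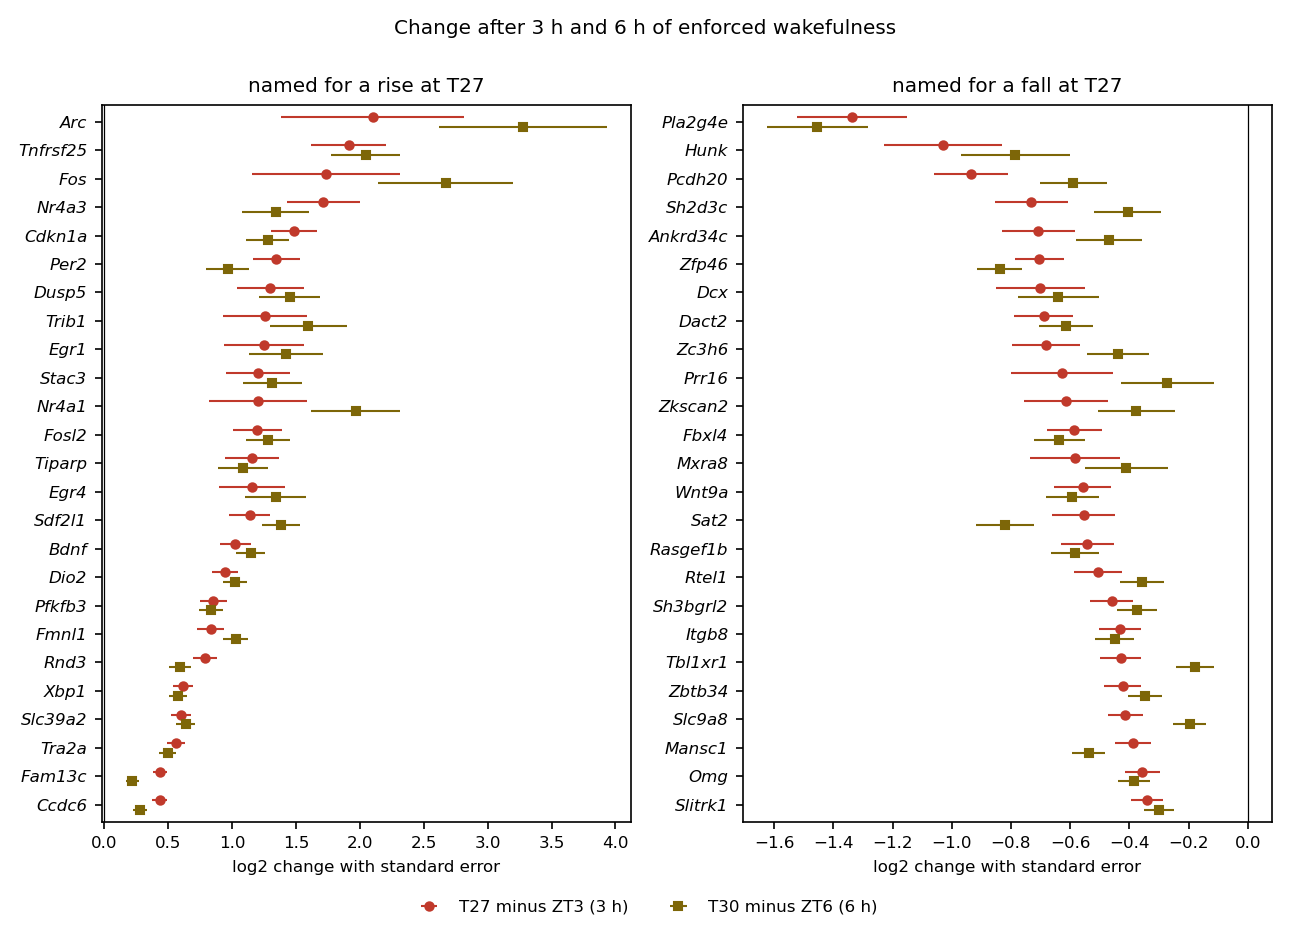
Log2 change with its standard error (x axis) of the 50 genes named by rule, after 3 h (T27 minus ZT3, red) and after 6 h (T30 minus ZT6, brown squares). Both changes of every gene lie on the same side of 0, and the largest 3 h fall is that of Pla2g4e (-1.34).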

How the data were processed

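Cortex RNA was read single-end to more than 36 M (mega) reads (median 55 M) and chromatin paired-end to more than 25 M (median 41 M), per the labels' protocols. Submitters' processing notes name kallisto 0.43.0 and sleuth 0.29.0, and Bowtie2, MACS2 2.1.1 and HTSeq 0.6.1, with GRCm38 and mm10. RNA values are log2 as deposited, read from the values as depth-normalised levels with 0.5 added, which give no read totals, and ATAC-seq values are the authors' normalised signal per peak. The first RNA column merges 2 libraries of 1 ZT0 animal, T0N5, and a repeat ATAC-seq library of ZT0 was left out. The merged T0N5 libraries are labelled batch 1 and batch 2, and the column was treated as batch 1. limma 3.58.1 in R 4.3.3 fitted all 62 RNA libraries (59 of ATAC-seq) with group means, a batch term and an intensity trend, with 2-sided p-values adjusted over all features. Replicates are separate animals. SEs and p-values rest on the spread between animals within groups, pooled over all groups and moderated, and so not on the 6 libraries alone.

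Named genes were the 15 largest changes each way among calls with groups that do not overlap and a level above the 25th percentile, then the 10 smallest p each way of the rest, then called list members, and the 5 peaks each way with the smallest p. Members, lists and tests were chosen with earlier results of these data known. Promoters are RefSeq's, GRCm38.p6, matched by symbol for 10251 genes. Alternatives were single libraries left out, the 6 libraries or batch 1 alone, a filter on low values, an offset of 4, quantile scaling, equal library medians, no intensity trend, a replicate block and, for ATAC-seq, edgeR 4.0.16 on whole reads recovered from 51 libraries (100% within 0.1 reads), the last chosen after seeing the data. Code was tested on simulated data. Some items are not reported here.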

Additional observations from a re-analysis of the deposited data

Results flagged for a closer look

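Of the 50 named genes, the 8 ZT0 libraries held 1 library far from the rest for 2. Egr4 read 5.33 in ZT0 library T0N2, where the group's median was 4.48 and the gap to its neighbour was 0.642 of the range. Fam13c read 5.18 in ZT0 library J70N1, where the median was 5.33 and the gap was 0.588 of the range. Chance flags about 1 in 20 groups, and 50 groups were examined. In the test of the difference between the 6 h and the 3 h effect, Sorcs3, a sorting receptor gene, was the gene called out of 13842, and 1092 had an unadjusted p below 0.05. Its change was 0.45 at T30 against ZT6 and -0.16 at T27 against ZT3 (adjusted p = 0.132), a difference of 0.61 (SE 0.10, adjusted p = 0.00267, limma).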

How the results depend on the processing

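Single libraries left out gave 770 to 955 genes higher and 687 to 954 lower at T27 than at ZT3, against 1136 and 1020 with all, and 86 to 641 peaks higher and 4 to 53 lower, against 860 and 41. A fit of the 6 libraries alone gave 623 lower genes, and 2345 higher and 318 lower peaks. Against ZT0, batch 1 alone, with the merged T0N5 column in it, gave 145 genes called at T27 and 425 at ZT3, in place of 500 and 669. An offset of 4 gave 1442 higher and 69 lower peaks, and edgeR gave 72 lower peaks. Which direction held more genes depended on scaling: quantile scaling gave 1061 higher and 1157 lower, and equal library medians 1024 and 1203. The causes were not tested. No named gene changed direction under any setting run. For the 50 named genes 687 of 700 values kept the call and 13, of Arc, Fos and Nr4a1, lost it, and for 191 other called list members 2274 of 2642 kept it. Replicate numbers do not pair the animals: only numbers 2 and 3 are shared, and deviations of same-numbered libraries correlated at 0.0094 and 0.19. With a replicate block within batch, 1042 genes were higher and 867 lower, and 411 peaks were higher and 45 lower. With 3 animals a group and depth of RNA counts unknown, small changes of low genes are the least certain.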
